A study of Mus musculus with 24 samples.

Results

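Ptgs2 and Nos2 encode inducible enzymes of activated macrophages, and their chromatin was followed here through all ChIP-seq peaks that overlap 2 windows of the mouse mm9 build. The Ptgs2 window of 65 kb runs from 151920000 to 151985000 on chromosome 1, and the Nos2 window of 85 kb from 78710000 to 78795000 on chromosome 11. They hold 84 of the 756484 peaks of the series, 36 at Ptgs2 and 48 at Nos2. All cells were bone marrow-derived macrophages of FVB/Hsd mice, taken on day 7 of differentiation after retroviral infection and puromycin selection. One arm expressed an RNA hairpin that targets Wdr82 (shWdr82) and the other a control construct, and each was left untreated or stimulated with bacterial lipopolysaccharide (LPS) at 10 ng/ml. The control was the empty LMP vector for histone H3 trimethylated at lysine 4 (H3K4me3) or acetylated at lysine 27 (H3K27ac). A scrambled hairpin served as control for H3K36me3, H3K4me1, all forms of RNA polymerase II (total Pol II) and its form with phosphoserine 2 (Ser2P). For H3K4me3 and H3K27ac, an effect of Wdr82 loss thus cannot be told apart from that of expressing any hairpin. By the sample titles H3K27ac and H3K4me3 were taken after 4 h of LPS, the other 4 antibodies after 45 min, although the treatment text names 4 h alone. LPS effects were therefore computed within an antibody, and those at 4 h were not set against those at 45 min as a time course. Each of the 24 groups is 1 library, so no difference below has a replicate check or a p-value. One hairpin was used, and the sources used here do not say whether the cells of different antibodies came from the same mice.

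Ptgs2 (gene ID 19225), also known as Cox-2, is the inducible cyclooxygenase that turns arachidonic acid into the precursor of prostaglandins. Nos2 (gene ID 18126), the inducible nitric oxide synthase, makes nitric oxide from arginine. Both genes are silent or weakly transcribed in resting macrophages and are switched on through Toll-like receptor signalling. Ptgs2 is a primary response gene, whereas full Nos2 induction also needs proteins made after the stimulus, among them interferon-beta. H3K4me3 marks promoters, H3K27ac marks active promoters and enhancers, H3K4me1 marks enhancers and promoter flanks, H3K36me3 is laid down over transcribed gene bodies, and Ser2P marks elongating Pol II. WDR82 is a subunit of the SET1 complexes that methylate H3K4 and of a phosphatase complex that acts in transcription termination.

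The 24 lists held between 14420 and 65149 peaks each and no peak with a score below 50. Scores are those of the authors' peak caller and are used only within a list. A score of 3100 recurs in several lists at peaks of very different width, so it does not rank those peaks against each other. Read depth is unknown, and a stretch without a peak may hold signal below the threshold of the caller. No gene annotation of mm9 was at hand, so neither the exons of Ptgs2 and Nos2 nor macrophage marker genes could be placed on the peaks, and the cell type was not checked against markers. In the RefSeq gene table for GRCm38, which was used only for gene order, Ptgs2 spans 8204 bp and has the long noncoding RNA gene Ptgs2os as its neighbour at lower coordinates. In the same table Nos2 spans 39440 bp and is followed at higher coordinates by Lgals9, which encodes galectin-9 and lies on the minus strand. Without gene positions on mm9, peaks at the right of the Nos2 window were not assigned to Nos2 or Lgals9. In what follows, left means lower coordinates and right means higher ones.

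Of the 2 genes, Ptgs2 has an entry in the RefSeq promoter table (GRCm38). It is shown because every antibody but Ser2P had a peak that overlapped the H3K4me3 region at Ptgs2 in both LPS libraries, and because Ptgs2os starts from the opposite strand close by. Its place within that region on mm9 was not checked. The first sequence holds the 156 bases between the 2 gene starts on the plus strand, with the matches to searched motifs in capitals.
Ptgs2os to Ptgs2: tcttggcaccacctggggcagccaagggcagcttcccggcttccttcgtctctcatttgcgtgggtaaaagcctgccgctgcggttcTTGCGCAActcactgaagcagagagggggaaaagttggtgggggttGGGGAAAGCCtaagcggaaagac
The second is a stretch of 28 bases just after the annotated Ptgs2 start, in which the core of a cyclic AMP response element and an E-box overlap, again in capitals.
Ptgs2 element and E-box: agtcaccactACGTCACGTGgagtccgc
The C/EBP-like motif TTGCNNAA matched at 1 place, on both strands, 69 bases before the Ptgs2 start, and is found in 10.8% of the 32851 promoters of 300 bases in the table. The loose kappaB-like pattern GGGNNNNNCC matched 23 bases before the start but is present in 50.8% of promoters. ACGTCA matched 13 bases and CACGTG 17 bases after the annotated start. They are found anywhere in the 300 bases of 7.51% and 7.15% of the promoters. All positions are counted from the annotated start, and whether transcription in these cells begins there was not tested. The Sp1-like CCGCCC matched once outside the printed stretch, 170 bases before the start (35.7% of promoters). The TATA box motif TATAAA had no match in this window and is held by 13.6% of promoters. The same was true of the octamer-like motif ATGCAAA (4.63%) and the AP-1-like motif TGANTCA (7.81%). All motifs were searched on both strands.

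H3K4me3 formed a single region at Ptgs2 that was called in all 4 libraries, at 151946348 to 151949460. It was 1168 bp wide in untreated empty vector cells and 3113 bp after LPS. In shWdr82 cells it measured 1207 bp untreated and 1722 bp after LPS, the latter as 2 peaks of 1266 and 456 bp with a gap of 327 bp. The untreated libraries were thus alike, and the widening on LPS went to the right, toward the H3K36me3 peaks. Here a covered length is called higher or lower when it differs at least 2-fold and by at least 1000 bp. By this rule the empty vector pair was called higher with LPS (2.67-fold) and the shWdr82 pair (1.43-fold) was not. In the empty vector libraries, 0.786% of all 65 kb windows with an H3K4me3 peak were called higher.

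Total Pol II at Ptgs2 went with LPS from little or nothing to a block longer than 10 kb in both vectors. The scrambled library had no peak when untreated and 1 peak of 10570 bp after 45 min of LPS. The shWdr82 library had a peak of 1165 bp inside the H3K4me3 region when untreated and 1 of 11227 bp after LPS. Both LPS peaks had a score of 3100, reached by 4.87% of the peaks of the scrambled list and 4.78% of the shWdr82 list. Their left ends lay 296 bp apart and their right ends 361 bp apart. Both LPS differences were called higher, against 12.6% of 65 kb windows in scrambled and 17.1% in shWdr82 cells, where 39.7% and 39.2% were called lower. A gain as long as that at Ptgs2 was seen in 6.72% of windows in scrambled and 9.94% in shWdr82 cells.

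**Figure D1:**
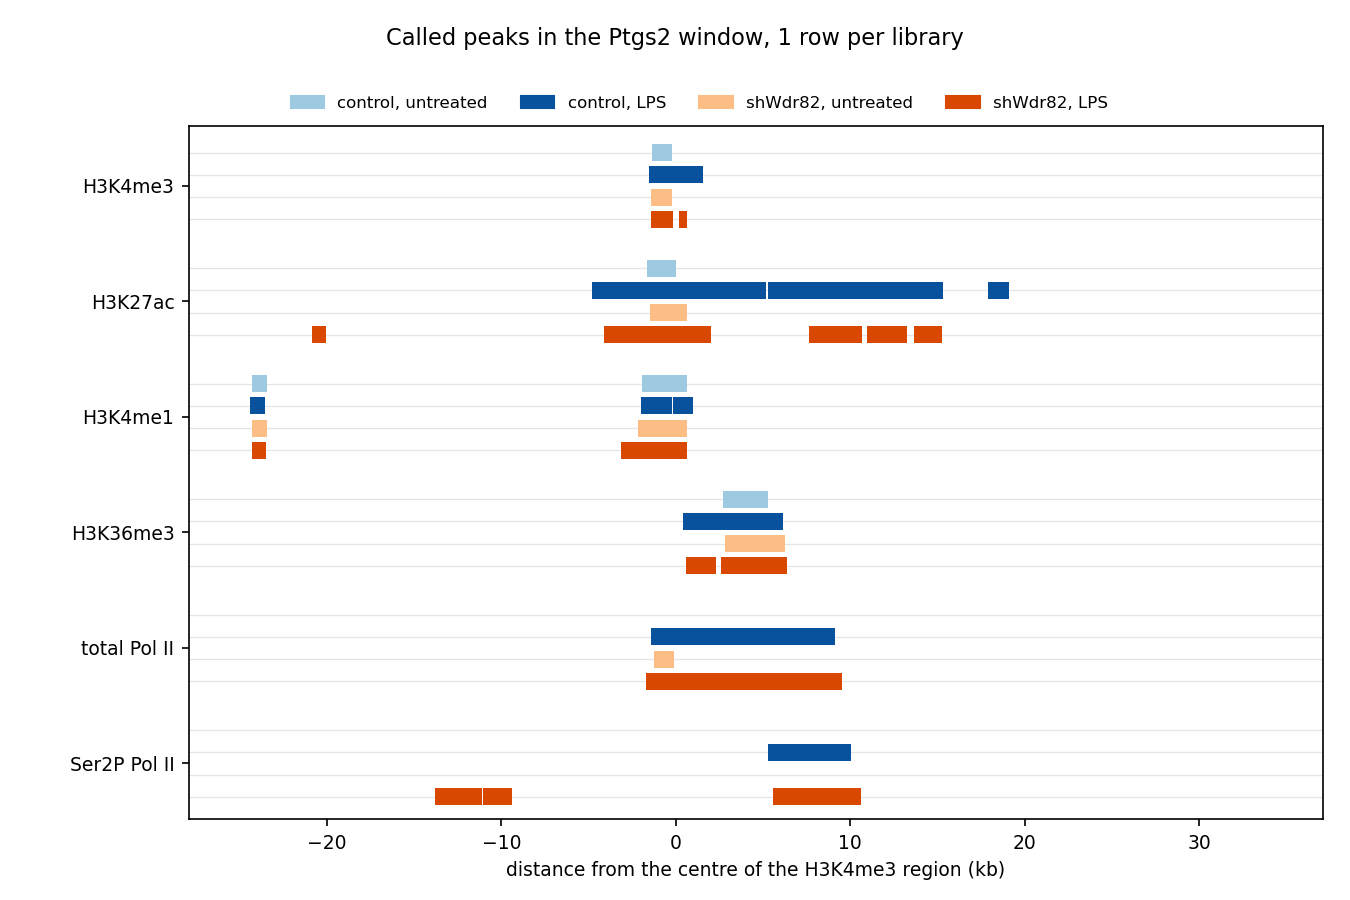
Peaks called in the Ptgs2 window, drawn as bars against the distance in kb from the centre of the H3K4me3 region, with 1 row for each of the 4 libraries of an antibody. The total Pol II block of 10570 to 11227 bp and the Ser2P peaks of 4791 to 5048 bp at its right end are present in LPS libraries only, and the Ser2P pair at the left in the shWdr82 LPS library only.

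Ser2P marked the right end of this block. Neither untreated library had a Ser2P peak in the window. After LPS there was 1 peak of 4791 bp in scrambled cells, at 151953171 to 151957961, and 1 of 5048 bp in shWdr82 cells, at 151953491 to 151958538. The Ser2P peak began 6698 bp to the right of the left end of the total Pol II peak in scrambled cells and 7314 bp in shWdr82 cells, and ended 919 and 1135 bp beyond it. Elongating Pol II was thus called over the right part of the block and past its end in both vectors, with 63.4% and 65.1% of the total Pol II peak lying before it. Such a shift past 1 end was common: among total Pol II peaks of at least 10 kb that overlapped exactly 1 Ser2P peak, it was found for 63.4% of 658 in the scrambled and 64.8% of 796 in the shWdr82 LPS library. Regions of both LPS libraries and no untreated library made up 4.32% of all Ser2P regions. Both LPS differences in the window were called higher, as were those of 11.8% of windows in scrambled and 21.7% in shWdr82 cells.

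H3K36me3, the gene body mark, was already present at Ptgs2 in untreated cells of both vectors, where Ser2P was not called. It covered 2554 bp in scrambled and 3456 bp in shWdr82 untreated cells, and 5741 and 5545 bp after LPS. All these peaks lay within 151948330 to 151954280, a stretch that meets the H3K4me3 region at its left and the Ser2P peaks at its right, and the LPS peaks began further to the left. The scrambled difference was called higher (2.25-fold), a call made for 3.47% of 65 kb windows, and the shWdr82 difference (1.60-fold) was not. This call rests on weak peaks. The scrambled LPS peak had a score of 84.48, and with peaks of a score of at least 100 the scrambled pair turned to 0 bp after LPS against 2554 bp untreated, while 3797 bp remained in shWdr82 LPS cells.

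H3K27ac around Ptgs2 grew from a promoter-sized peak to a domain on both sides of it. Empty vector cells had 1 peak of 1701 bp when untreated. After 4 h of LPS they had peaks of 9959 and 10042 bp, only 113 bp apart, which together ran over 20.1 kb from 151943124 to 151963237, and a weak peak of 1202 bp further right. The shWdr82 cells had 1 peak of 2118 bp when untreated. After LPS they had 6164 bp at the promoter, 3 peaks of 3033, 2303 and 1585 bp at the right, and a weak one of 822 bp at the far left. The outer ends of the domain were close in both vectors, and inside it shWdr82 cells had a stretch of 5617 bp without a peak. Covered lengths rose 12.5-fold in empty vector and 6.57-fold in shWdr82 cells, both called higher, as were 22.8% and 18.6% of windows. The shWdr82 total after LPS was 13907 bp against 21203 bp, a difference of 0.656-fold that was not called, and 2.04% of windows had a loss as long.

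H3K4me1 was the only antibody at Ptgs2 with no difference called in any of its 4 comparisons. One region of 979 bp at the far left, 151923476 to 151924454, was called in all 4 libraries at 801 to 871 bp. It lies 21893 bp from the H3K4me3 region and had no peak of any other antibody in any library. The second region covered the promoter in all 4 libraries, at 2568 bp in scrambled and 2771 bp in shWdr82 untreated cells and at 2948 and 3767 bp after LPS.

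At Nos2 the promoter mark was absent before stimulation. No H3K4me3 peak was called in the window in either untreated library. After 4 h of LPS the empty vector library had 1 peak of 5387 bp at 78734181 to 78739567, with a score of 3100, and only 0.778% of the peaks in its list were as wide. The shWdr82 library had 2 peaks of 529 and 2572 bp, 92 bp apart, at 78734310 to 78737502. Both vectors thus gained the mark with nearly the same left end, and the region reached further right in empty vector cells. Regions held by both LPS libraries and no untreated library were rare for this antibody, at 0.555% of 21626 regions. Both differences were called higher, against 0.651% of 85 kb windows in empty vector and 0.954% in shWdr82 cells, and a gain as long was seen in 8 of 10142 and 27 of 10691 windows.

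**Figure D2:**
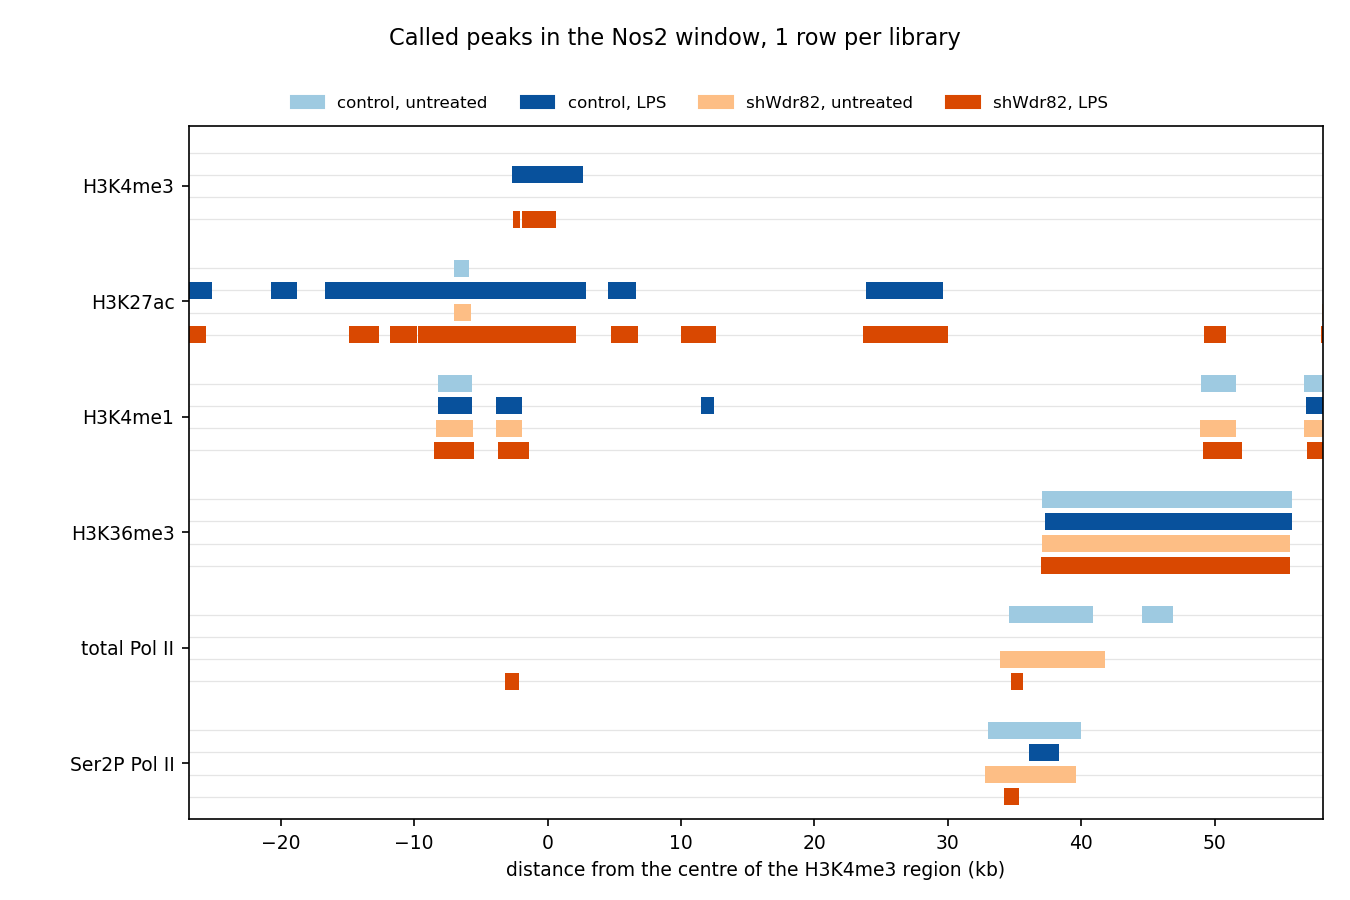
Peaks called in the Nos2 window, drawn as bars against the distance in kb from the centre of the H3K4me3 region, with 1 row for each of the 4 libraries of an antibody and peaks clipped at the window edges. H3K4me3 is present in the LPS libraries only. H3K36me3 covers the same 18498 to 18748 bp at the right in all 4 libraries. The longest Pol II peaks cross the left end of this block in untreated cells. Shorter ones cross that end, lie inside the block or lie to its left, among them 1 of 993 bp at the H3K4me3 region.

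A site left of the Nos2 promoter carried enhancer marks before stimulation. H3K4me1 was called at 78728360 to 78731349 in all 4 libraries, at 2612 bp in scrambled and 2823 bp in shWdr82 untreated cells and at 2560 and 2990 bp after 45 min of LPS. Its right end lay 2831 bp from the later H3K4me3 region. Within it sat an H3K27ac peak of 1074 bp in empty vector and 1293 bp in shWdr82 untreated cells. Their scores of 60.27 and 113.24 were low, reached by 95.0% and 82.1% of the peaks of these lists. Apart from a peak at the right edge of the window, these were the only H3K27ac peaks at Nos2 before LPS. A second H3K4me1 region, at 78733007 to 78735457, overlapped the left end of the H3K4me3 region and was called in 3 libraries, at 1947 to 2266 bp. The scrambled untreated library had none there. Scores of 53.6 to 74.24 put these 3 peaks near the threshold of 50.

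After 4 h of LPS the H3K27ac site had become part of a domain that also covered the promoter. This domain was 1 peak of 19540 bp in empty vector cells. In shWdr82 cells it was made of 3 peaks of 2258, 2038 and 11803 bp that covered 16099 bp of the same stretch. A pair of regions further right were acetylated in both LPS libraries and no untreated one: 78741422 to 78743678, with 2092 and 2072 bp, and 78760489 to 78766881, with 5779 bp in empty vector and 6393 bp in shWdr82 cells. The latter lay 20921 bp right of the H3K4me3 region and had no peak of any other antibody in any of the 20 other libraries. Absence of H3K4me1 was not unusual at such sites, since it held for 2219 of the 4933 H3K27ac regions of both LPS libraries alone and for 241 of the 792 that were at least 5000 bp wide. Regions of this pattern made up 12.4% of all H3K27ac regions.

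The left edge of the window also cut a very wide H3K27ac domain of 44615 bp in empty vector and 43908 bp in shWdr82 LPS cells, which no untreated library held. It reaches only 1750 and 1274 bp into the window, and 0.0759% and 0.0703% of the peaks of these lists were as wide. Over the window as a whole H3K27ac covered 1074 bp untreated and 31173 bp after LPS in empty vector cells, and 1373 and 30255 bp in shWdr82 cells. These differences of 29.0-fold and 22.0-fold were called higher, as were 22.5% and 18.3% of 85 kb windows. A gain as long was seen in 1.09% and 0.739% of windows.

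At the 45 min time point no library had a Pol II block at the Nos2 H3K4me3 region like that at Ptgs2. No library had a total Pol II, Ser2P or H3K36me3 peak in the 30060 bp between the H3K4me3 region and the Ser2P region at the right. In the gene table Nos2 spans 39440 bp, more than this stretch, and it was not placed on mm9. Whether the Pol II peaks further right lie in Nos2 was therefore not tested. At the H3K4me3 region itself the sole peak was one of total Pol II, 993 bp at 78733720 to 78734712 with a score of 132.26, in the shWdr82 LPS library. The nearest total Pol II peak of the scrambled LPS library was 63043 bp away. Since H3K4me3 and H3K27ac were taken at 4 h, they cannot be set against this as a time course within the same cells.

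The right of the Nos2 window carried marks of transcription before LPS. H3K36me3 covered 18748 and 18498 bp in scrambled untreated and LPS cells and 18613 and 18683 bp in shWdr82 cells, all with a score of 3100. Its left ends lay at most 319 bp apart and its right ends at most 146 bp apart. In untreated cells total Pol II and Ser2P straddled the left end of this block. Total Pol II covered 6311 bp there in scrambled and 7877 bp in shWdr82 untreated cells. After LPS no peak was called in scrambled cells, and shWdr82 cells had one of 869 bp that ended to the left of the block. A second untreated scrambled peak of 2339 bp lay inside the block. Ser2P measured 6983 and 6822 bp in scrambled and shWdr82 untreated cells and 2296 and 1132 bp after LPS, when the shWdr82 peak also ended before the block.

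Pol II was thus less covered with LPS in both vectors, while H3K36me3 was not. Over the window the total Pol II difference was 0 against 8650 bp in scrambled and 1862 against 7877 bp in shWdr82 cells, both called lower. The same call was made for 39.4% and 39.6% of 85 kb windows, so the loss in the Nos2 window was a common one. The total Pol II lists were also shorter after LPS, with 21891 and 22307 peaks against 32385 and 28497. When every list was cut to 21891 peaks by score, the window was still called lower, by -6311 bp in scrambled and -6015 bp in shWdr82 cells. For Ser2P the window was called lower in both vectors, as were 20.6% of windows in scrambled and 17.4% in shWdr82 cells.

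**Figure D3:**
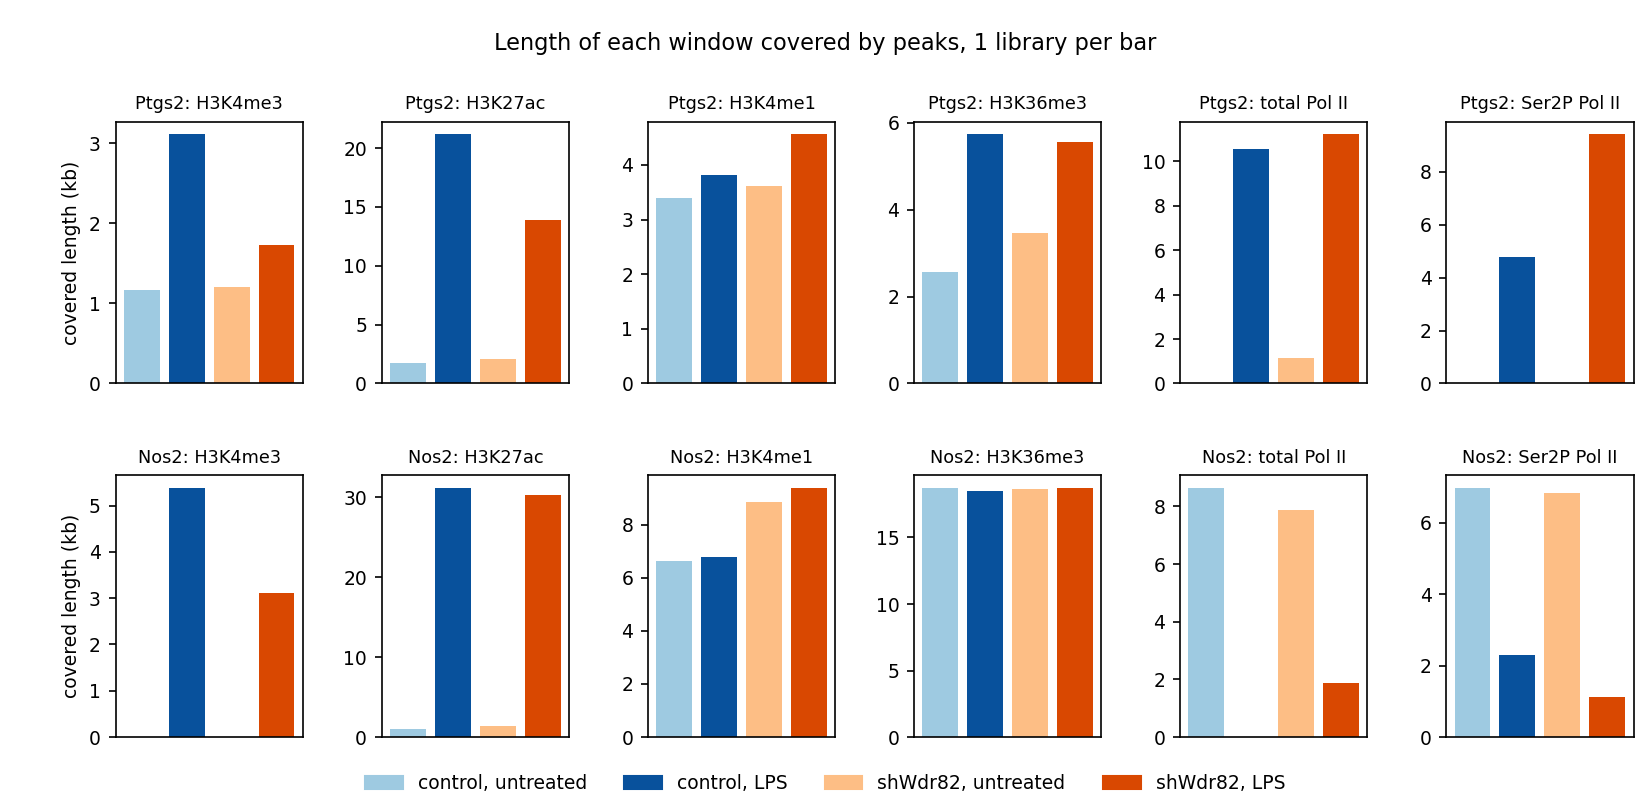
Length in kb of each window covered by peaks of each antibody, 1 bar per library, with Ptgs2 in the upper and Nos2 in the lower row and a scale of its own in each panel. With LPS, H3K27ac is longer at both loci, and total Pol II and Ser2P are longer in the Ptgs2 and shorter in the Nos2 window. H3K36me3 in the Nos2 window stays between 18498 and 18748 bp.

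The H3K4me1 regions to the right of the Nos2 promoter mark differed between libraries without a common direction. A region at 78785815 to 78788916, inside the H3K36me3 block, was called at 2601 bp in scrambled untreated cells and at 2682 and 2904 bp in shWdr82 cells, and not in scrambled LPS cells. One of 979 bp at 78748364 was called in scrambled LPS cells alone, at a place where only the shWdr82 LPS library had H3K27ac. The last one, at the right edge, was called in all 4 libraries at 1228 to 1482 bp. It overlaps a region with H3K27ac scores of 3100 in all 4 libraries. That region begins just outside the window in the control lists and just inside it in the shWdr82 lists, so only these lists have a peak there. The same region held H3K4me3, at 2770 to 3778 bp, and total Pol II, at 1186 to 3881 bp, in all 4 libraries, outside the window. A promoter mark present before LPS thus lay beyond the right end of the H3K36me3 block. Whether it belongs to Lgals9 was not tested.

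In shWdr82 cells, H3K4me3 was narrower than in empty vector cells at both loci once LPS had been given. With this control, loss of Wdr82 cannot be told apart from expression of a hairpin. The shWdr82 library covered 1722 bp against 3113 bp at Ptgs2 (0.553-fold) and 3101 against 5387 bp at Nos2 (0.576-fold), both short of the 2-fold line. Of the 16078 H3K4me3 regions called in both LPS libraries, 1.13% had a ratio as low as that at Ptgs2 and 1.37% as low as that at Nos2, around a median ratio of 1.02. Wide control regions had lower ratios in general. Among regions at least as wide in the empty vector library as that at Ptgs2 the median ratio was 0.896 and 4.18% were as low, and among those as wide as at Nos2 the median was 0.813 and 10.2% were as low. In untreated cells the Ptgs2 widths were 1207 bp in shWdr82 and 1168 bp in empty vector cells, a ratio of 1.03, and Nos2 had no peak to compare. Across the genome, 77.8% of 65 kb windows were less covered in the untreated shWdr82 library. The median peak width was 1187 bp in that list and 1526 bp in the untreated empty vector list. The scores at Nos2 after LPS, 3100 in the empty vector list and at most 583.39 in the shWdr82 list, were reached by 47.7% and 66.3% of the peaks of these lists.

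Pol II at Ptgs2 after LPS differed little with the knockdown at the gene itself. Total Pol II was 1.06 times as wide and the Ser2P peak at the right end 1.05 times as wide in shWdr82 as in scrambled cells. The shWdr82 LPS library alone had a pair of Ser2P peaks left of the promoter, of 2704 and 1672 bp with 23 bp between them, at 151934119 to 151938517. Their right end lay 7830 bp from the H3K4me3 region, on the side where the gene table lists Ptgs2os. No peak of any other antibody was called there in any library. The nearest Ser2P peak of the scrambled LPS library was 14653 bp away, at the right end of the total Pol II block. The scores of 137.48 and 131.86 were near the middle of that list, where 52.3% and 53.5% of peaks scored as high. With this pair the window held 9424 bp of Ser2P in shWdr82 and 4791 bp in scrambled LPS cells, a ratio of 1.97, just under the 2-fold line. The shWdr82 LPS list covered 60.6 Mb in all against 44.7 Mb, and 20.6% of 65 kb windows were called higher in this comparison. With a score of at least 100, or with lists of equal number, the pair stayed and the lengths were unchanged. With lists of equal covered length the pair was gone, and 5048 bp stood against 4791 bp. That setting kept 6135 peaks of the shWdr82 and 12475 of the scrambled LPS list.

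At Nos2 the knockdown differences of Pol II rested on short peaks. Total Pol II after LPS was called higher in shWdr82 cells, at 1862 against 0 bp, and Ser2P was called lower, at 1132 against 2296 bp. With a score of at least 100, or with lists of equal covered length, the shWdr82 Ser2P peak was lost and the difference was -2296 bp. The same calls were made for 14.1% and 8.74% of 85 kb windows. The only difference called between untreated libraries was total Pol II at Ptgs2, higher in shWdr82 cells at 1165 against 0 bp, a call made for 5.98% of 65 kb windows. That peak had a score of 73.42, and no peak of it remained with a score of at least 100. Of the 31 merged regions of the 2 windows, 0 were held by both shWdr82 libraries and no control library. Likewise 0 were held by both control libraries and no shWdr82 library. Over all regions the first pattern made up 0.386% (H3K27ac) to 4.51% (H3K36me3) and the second 0.457% (H3K27ac) to 4.63% (H3K4me1). With shares this small, 0 of 31 regions does not set these loci apart.

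**Figure D4:**
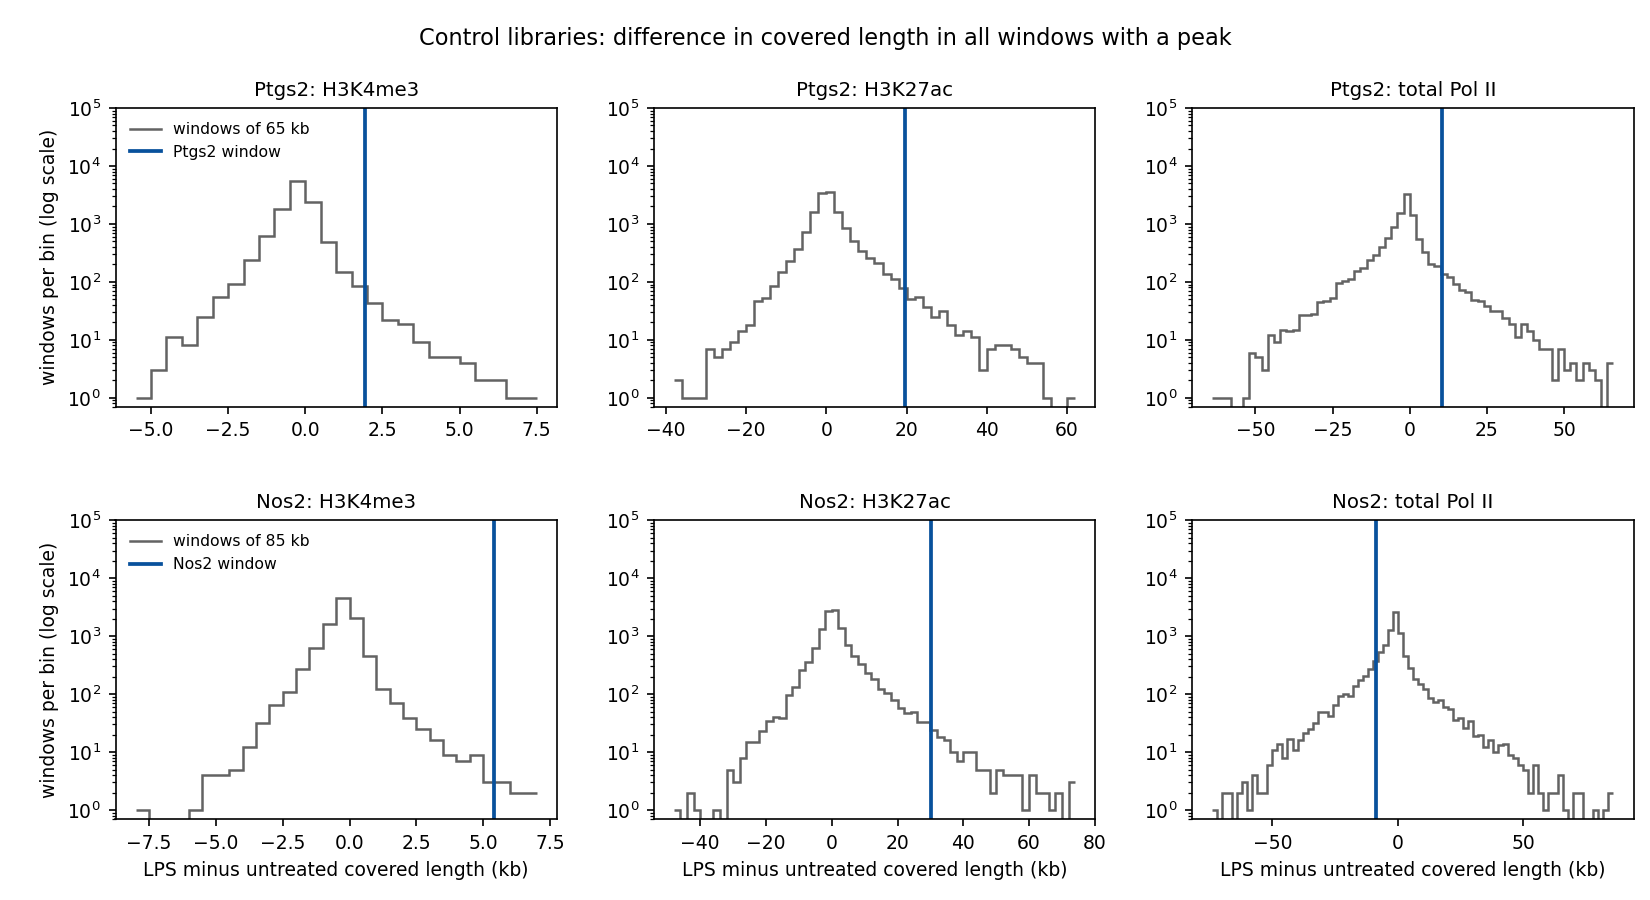
Distribution of the LPS minus untreated difference in covered length (kb) over all windows of the same size in the control libraries, as the number of windows per bin on a log scale, with the Ptgs2 (upper row) and Nos2 (lower row) windows as vertical lines. The H3K4me3 gain of 5387 bp at Nos2 lies at the far right of its distribution. The total Pol II loss of 8650 bp in the Nos2 window lies among the 39.4% of windows called lower.

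The 2 genes entered stimulation with different marks. Ptgs2 had H3K4me3, H3K27ac, H3K4me1 and H3K36me3 peaks in all 4 libraries and a Pol II block after 45 min of LPS. After 4 h, its H3K27ac ran over 20.1 kb and its H3K4me3 was wider in empty vector cells. The Nos2 window had H3K4me1 and H3K27ac beside the later promoter mark, and gained H3K4me3 and a wide H3K27ac domain after 4 h. Untreated H3K27ac scores were low at both, reached by 72.5% (empty vector) and 73.3% (shWdr82) of peaks at Ptgs2. At Nos2 these shares were 95.0% and 82.1%. The Nos2 window also held H3K36me3 in all 4 libraries and Pol II in untreated cells at its right. These peaks were not assigned to Nos2 or Lgals9, and H3K4me3 lay just past the right edge in all 4 libraries. In numbers, 5 of 6 antibodies were called higher with LPS at Ptgs2 in control cells, where the same calls were made for 0.786% (H3K4me3) to 22.8% (H3K27ac) of windows, and H3K36me3 among them turned lower with a score of at least 100. In shWdr82 cells 3 of 6 were called higher, without H3K4me3 and H3K36me3, against 17.1% to 21.7% of windows. At Nos2, 2 were called higher and 2 lower in each vector. The calls higher were H3K4me3 (0.651% of windows in control and 0.954% in shWdr82 cells) and H3K27ac (22.5% and 18.3%). Those lower were total Pol II (39.4% and 39.6%) and Ser2P (20.6% and 17.4%), both common losses. These counts join antibodies taken after 4 h and after 45 min of LPS. The differences between vectors in these LPS effects were not tested.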

How the data were processed

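Peak lists of 24 ChIP-seq libraries, 1 for each group, were analysed. The submitters' processing notes list Bowtie 0.12.7, MACS 1.4 and the mm9 build. Nothing here gives the input libraries or the read depth. The only measured value in the deposited lists is the authors' peak score, used within a list. The windows were those stated in the opening, and by the rule for naming, both genes, every peak overlapping a window and their neighbours in the gene table could be named. The members, motifs and tests were chosen with earlier results of these data known. For each library the length covered by the union of its peaks was computed within the window (Python 3.11.15, numpy 2.4.6). Peaks of the 4 libraries of an antibody that shared at least 1 bp were merged into regions. The background came from adjoining windows of the same length over all chromosomes, leaving out windows with no peak in either library of a comparison. The code was tested on simulated peaks. Alternatives were a score of at least 100, lists of equal number or equal covered length, wider windows, peaks wholly inside, and joining within 500 bp. With 1 library in each group no test was possible, and precision is not known. Prostanoid, nitric oxide and cell type marker genes were to be examined only with gene positions on mm9, which were not at hand, so they were not analysed here.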

Additional observations from a re-analysis of the deposited data

How the results depend on the processing

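Of the 48 differences in covered length (6 antibodies, 4 comparisons, 2 loci), 40 kept their label under all 5 alternatives. Many of these 40 were called neither higher nor lower in any setting, so the count does not measure how firm the called differences are. With a score of at least 100, H3K36me3 at Ptgs2 reversed, to -2554 bp for LPS minus untreated in scrambled cells and to 3797 bp for shWdr82 minus scrambled after LPS, because the scrambled LPS peak fell below that score. The total Pol II excess of shWdr82 over scrambled LPS cells at Nos2 then measured 993 bp and was no longer called. The total Pol II excess in untreated shWdr82 cells at Ptgs2 was 0 bp with that score and with lists of equal number or equal covered length. In a window wider by 20000 bp on each side, the Ser2P excess of shWdr82 over scrambled LPS cells at Ptgs2 was 7907 bp and was called higher, whereas with lists of equal covered length it was 257 bp. H3K4me3 after LPS was called lower in shWdr82 cells with lists of equal covered length, by -1847 bp at Ptgs2 and -2815 bp at Nos2, and at Ptgs2 also with a score of at least 100. The untreated H3K27ac excess of shWdr82 cells at Nos2 was called, at 1373 bp, with a score of at least 100 and with equal numbers of peaks. Regions in all 4 libraries numbered 3 in place of 5 at Ptgs2 and 3 in place of 6 at Nos2 with a score of at least 100. Joining peaks within 500 bp left 1 region of both LPS libraries alone at Ptgs2 in place of 2. No paired analysis was possible because each group has 1 library. Depth is unknown, and no result has a replicate check.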
